A study of Mus musculus with 18 samples.

Results

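Expression of 10 genes of the circadian clock (Arntl, Clock, Npas2, Per1, Per2, Per3, Cry1, Cry2, Nr1d1 and Dbp) was examined in mouse fat. They were chosen by their symbol, out of 45151 symbols listed in the files of all depots, and all 10 had reads in every library. The clock of a mammalian cell is a transcriptional feedback loop. BMAL1, the product of Arntl, pairs with CLOCK or NPAS2 and switches on genes through E-box sites, among them the Per and Cry genes, whose products then inhibit this pair. The same pair switches on Nr1d1, whose product REV-ERBα represses Arntl, and Dbp, an output regulator that acts on D-box sites. In many mouse tissues, fat included, Arntl and Dbp messages therefore peak at opposite times of day.

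The data comprised 18 RNA-seq libraries from wild-type C57BL/6J male mice aged 16 weeks that ate regular chow. Each of 3 depots gave 6 libraries, from white adipocytes of the inguinal (iWAT) or epididymal (eWAT) pad or from brown adipose tissue (BAT). The white adipocytes were the floating cell layer after collagenase digestion, whereas BAT was frozen as whole tissue although its cell type label reads adipocytes, so depot and preparation cannot be told apart in any comparison with BAT. Libraries are named here by depot and by the number in their titles, and 8 different numbers occur. The hour at which tissue was taken is not given in the sources used here. Nothing in the labels says which libraries share a mouse, so the p-values measure only the spread between these libraries. In such bulk samples, fewer cells of a type and less RNA per cell cannot be told apart.

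Read totals behind the deposited RPKM values (reads per kilobase of a row, scaled to the reads of the library) lay between 22929576 and 34512470. Ucp1, the uncoupling protein gene, averaged 1219 ± 189.5 RPKM in BAT against 2.82 ± 1.92 RPKM in iWAT (SD, n = 6), and Adipoq, the adiponectin gene, averaged 302 RPKM or more in each depot. In iWAT and BAT a row is a gene with merged exons, while in eWAT it is a transcript, of which the one with the most reads was taken. The merged row was longer than this transcript by a ratio of 2.77 for Per3, 2.36 for Cry2, 1.87 for Arntl, 1.67 for Dbp, 1.36 for Clock and at most 1.21 for the other members. Counting and depot cannot be told apart in comparisons with eWAT, which are given with row length as an offset, and also without it. Without rescaling of the deposited RPKM, the log2 difference of the median gene was 0.24 for iWAT over BAT, 0.71 for eWAT over BAT and -0.34 for iWAT over eWAT, and in limma on these values (pseudocount 0.1), where both test and scaling differ from edgeR with TMM, the share of called genes that were higher in the first depot moved from 50.3% to 65.2%, from 54.0% to 77.9% and from 46.1% to 10.2%. Fold changes below are relative to this shift, since TMM scaling was used. Of 6 macrophage markers all were detected, with a summed RPKM of 2018 in eWAT library 15 against 139 to 484 in the other eWAT libraries. All 5 skeletal muscle markers were found in BAT library 12, with a summed RPKM of 1340 against 0.550 to 119 in the other BAT libraries. All 5 epididymis markers were above 0 in eWAT libraries 14 and 15, with sums of 87.5 and 70.4 against 0.0581 to 3.78 in the other eWAT libraries.

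Promoters are shown first because the factors of the loop described above act through sites in DNA. RefSeq promoters (build GRCm38.p6, 250 bases before to 50 bases after a start site, read in the direction of the gene) were found for 9 of the 10 members (all but Per2), 13 promoters in all. Both strands were searched for the E-box CACGTG, its variant CACGTT, the D-box letters TTATGTAA and TTACGTAA, and AGGTCA, the core of ROR and REV-ERB receptor sites. None of these motifs contains another. The lines below show 1 promoter each of 6 members with a match, with matches in capitals.
Arntl promoter, chr7:113207261-113207560, plus strand: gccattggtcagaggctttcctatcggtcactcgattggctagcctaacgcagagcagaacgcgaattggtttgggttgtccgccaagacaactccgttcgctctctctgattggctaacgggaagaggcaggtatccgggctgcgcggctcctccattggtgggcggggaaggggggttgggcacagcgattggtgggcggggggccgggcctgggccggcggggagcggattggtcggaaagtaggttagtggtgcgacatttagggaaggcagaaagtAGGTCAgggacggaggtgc
Nr1d1 promoter, chr11:98775328-98775627, minus strand: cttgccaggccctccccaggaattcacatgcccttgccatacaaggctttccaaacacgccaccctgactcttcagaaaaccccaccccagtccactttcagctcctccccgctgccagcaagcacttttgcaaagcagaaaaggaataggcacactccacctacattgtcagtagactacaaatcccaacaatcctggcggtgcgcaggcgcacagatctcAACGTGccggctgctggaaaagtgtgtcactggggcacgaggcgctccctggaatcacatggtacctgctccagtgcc
Per1 promoter, chr11:69098699-69098998, plus strand: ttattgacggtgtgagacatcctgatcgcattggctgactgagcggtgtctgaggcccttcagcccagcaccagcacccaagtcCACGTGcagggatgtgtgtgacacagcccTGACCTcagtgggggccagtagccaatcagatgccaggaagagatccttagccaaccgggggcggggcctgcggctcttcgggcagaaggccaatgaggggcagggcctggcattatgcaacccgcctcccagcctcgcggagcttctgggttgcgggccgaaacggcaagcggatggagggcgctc
Cry1 promoter, chr10:85185005-85185304, minus strand: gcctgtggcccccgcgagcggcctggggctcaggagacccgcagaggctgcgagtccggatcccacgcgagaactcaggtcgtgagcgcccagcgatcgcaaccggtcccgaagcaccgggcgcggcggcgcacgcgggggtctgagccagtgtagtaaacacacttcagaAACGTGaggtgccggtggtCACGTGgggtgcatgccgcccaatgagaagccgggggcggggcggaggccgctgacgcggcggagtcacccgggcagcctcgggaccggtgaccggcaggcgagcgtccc
Cry2 promoter, chr2:92434020-92434319, minus strand: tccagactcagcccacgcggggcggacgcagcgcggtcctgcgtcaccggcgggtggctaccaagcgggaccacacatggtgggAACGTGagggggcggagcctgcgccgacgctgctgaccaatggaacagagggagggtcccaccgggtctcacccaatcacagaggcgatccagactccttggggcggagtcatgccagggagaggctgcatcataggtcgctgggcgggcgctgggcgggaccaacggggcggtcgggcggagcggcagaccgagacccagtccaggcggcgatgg
Per3 promoter, chr4:151044616-151044915, minus strand: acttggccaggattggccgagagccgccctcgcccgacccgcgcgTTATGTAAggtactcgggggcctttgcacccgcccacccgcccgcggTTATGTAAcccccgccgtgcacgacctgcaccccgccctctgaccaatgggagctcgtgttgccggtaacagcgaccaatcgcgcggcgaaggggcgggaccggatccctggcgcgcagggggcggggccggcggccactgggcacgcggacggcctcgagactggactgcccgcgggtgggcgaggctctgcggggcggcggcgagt
The Per3 promoter held TTATGTAA at positions -205 and -158 from the start site, a motif found in 0.938% of 32851 RefSeq promoters of the same length. CACGTG occurred at -166 in Per1 and at -60 in Cry1, and in 7.15% of all promoters. CACGTT, seen here on the opposite strand as AACGTG, occurred at -79 in Cry1, -28 in Nr1d1 and -166 in Cry2, and in 4.68% of all promoters. AGGTCA occurred at position 31 in Arntl, at -137 in Per1 (as TGACCT, on the opposite strand) and in 1 Clock promoter, and in 16.3% of all promoters. TTACGTAA, present in 0.119% of all promoters, was in none of the 13 member promoters, and the Dbp and Npas2 promoters held none of the 5 motifs. The other promoters of Arntl, Per1 and Clock also held none of them. These matches describe letters in the searched windows only.

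Levels differed widely between members, as shown in the plot of RPKM by library. Nr1d1 was the most abundant in every depot, averaging 33.5 ± 6.01 RPKM in BAT, 81.8 ± 19.2 in eWAT and 118 ± 19.8 in iWAT (SD, n = 6). Dbp followed in iWAT and BAT with 20.6 ± 13.2 and 8.84 ± 6.14 RPKM (SD, n = 6), and its 15.9 ± 12.4 RPKM in eWAT lay beside 15.2 ± 3.33 RPKM for Cry2 (SD, n = 6). Npas2 was the least abundant, at 0.140 ± 0.0675 RPKM in BAT, 0.289 ± 0.128 in eWAT and 0.276 ± 0.218 in iWAT (SD, n = 6), which rested on 2 to 56 reads per library. The spread of Dbp reached the mean of Cry2, so their order in eWAT is not set.

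**Figure D1:**
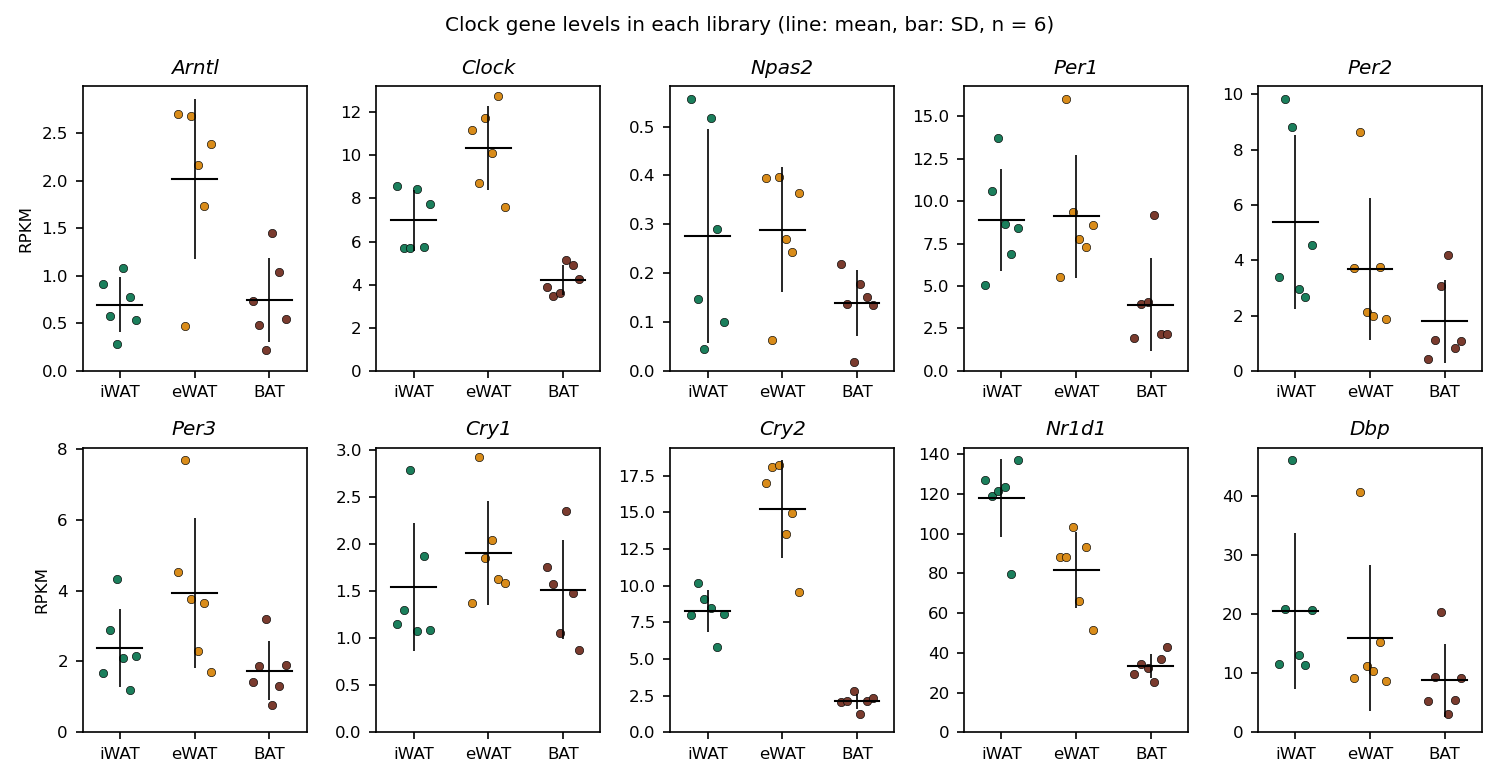
RPKM (linear axes from 0) of the 10 clock genes in the 6 libraries of each depot, with the mean as a horizontal line and the SD as a vertical bar. Cry2, Nr1d1 and Clock in BAT lie below every white adipocyte library on this unscaled RPKM, but only Cry2 does so after TMM rescaling. The share of all genes that separate in this way was not computed. For Dbp, 1 library stands far above the other 5 in each depot.

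Of the activators, Clock was higher in white adipocytes than in BAT. Clock, which encodes a partner of BMAL1 (gene identifier 12753, mm9 chr5:76638896-76733817, minus strand), ranged from 5.69 to 8.59 RPKM in iWAT (median 6.75), from 7.59 to 12.8 in eWAT (median 10.6) and from 3.46 to 5.15 in BAT (median 4.08). No library of iWAT or eWAT overlapped with BAT on this scale, although they did overlap after TMM rescaling. The log2 fold change was 0.47 ± 0.14 (SE) for iWAT over BAT (edgeR, adjusted p = 0.00842). For eWAT over BAT it was 0.58 ± 0.15 (SE, edgeR, adjusted p = 0.00216) with the length offset and 0.53 ± 0.15 (SE, edgeR, adjusted p = 0.00317) without it. For iWAT over eWAT it was -0.13 ± 0.15 (SE, edgeR, adjusted p = 0.479) with the offset and -0.11 ± 0.14 (SE, edgeR, adjusted p = 0.616) without it. Clock was lower in iWAT than in eWAT past the threshold in other settings, at -0.46 with the eWAT transcript of highest RPKM (edgeR, adjusted p = 0.0137) and at -0.56 and -0.51 in limma on unscaled RPKM with pseudocounts of 0.1 and 1 (adjusted p = 0.00323 and 0.00308).

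Arntl, the obligate partner in the activating pair (gene identifier 11865, mm9 chr7:120350979-120457638, plus strand), ranged from 0.278 to 1.08 RPKM in iWAT (median 0.682), from 0.472 to 2.70 in eWAT (median 2.27) and from 0.216 to 1.45 in BAT (median 0.641). On this unscaled RPKM, eWAT library 8 was within the range of the other depots, while the other 5 eWAT libraries lay above all iWAT and BAT libraries. After TMM rescaling, not all of these 5 stayed above BAT, with an eWAT median of 1.74 against a highest BAT value of 1.66. The share of all genes that separate in this way was not computed. With the length offset, iWAT was lower than eWAT by a log2 fold change of -1.11 ± 0.42 (SE, edgeR, adjusted p = 0.0350). Without the offset the value was -0.62 ± 0.42 (SE, edgeR, adjusted p = 0.296), so this call depended on how row length was treated. It was also lost in 7 of 12 fits that each left out 1 library (iWAT 11, 12 or 15, or eWAT 7, 11, 13 or 15), with values from -1.10 to -0.90 and adjusted p-values from 0.0519 to 0.0821 (edgeR). Arntl did not pass the test for iWAT over BAT, at -0.34 ± 0.39 (SE, edgeR, adjusted p = 0.450), nor for eWAT over BAT, at 0.75 ± 0.42 (SE, edgeR, adjusted p = 0.114) with the offset and 0.24 ± 0.42 (SE, edgeR, adjusted p = 0.618) without it. The value with the offset became 0.96 (edgeR, adjusted p = 0.0238) without eWAT library 8. In limma on unscaled RPKM, Arntl was higher in eWAT than in BAT by 1.34 and 0.77 with pseudocounts of 0.1 and 1 (adjusted p = 0.00552 and 0.00252). Npas2, which can stand in for Clock (gene identifier 18143, mm9 chr1:39251117-39420085, plus strand), passed in none of the 3 comparisons in these edgeR fits.

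Of the repressors, Cry2 showed the clearest depot difference. Cry2, a cryptochrome that blocks the activating pair (gene identifier 12953, mm9 chr2:92243803-92274229, minus strand), ranged from 5.83 to 10.2 RPKM in iWAT (median 8.27), from 9.59 to 18.3 in eWAT (median 16.0) and from 1.25 to 2.85 in BAT (median 2.11). Every white adipocyte library was above every BAT library, also after TMM rescaling. The log2 fold change for iWAT over BAT was 1.68 ± 0.19 (SE), a 3.21-fold higher level (edgeR, adjusted p = 2.45e-06). For eWAT over BAT it was 2.09 ± 0.20 (SE, edgeR, adjusted p = 1.79e-08) with the length offset and 1.26 ± 0.19 (SE, edgeR, adjusted p = 1.16e-05) without it. The difference between iWAT and eWAT turned with the length treatment, from -0.44 ± 0.19 (SE, edgeR, adjusted p = 0.0585) with the offset to 0.38 ± 0.19 (SE, edgeR, adjusted p = 0.152) without it. With the offset it passed at -0.46 for the eWAT transcript of highest RPKM (edgeR, adjusted p = 0.0426). Without eWAT libraries 14 and 15 it was -0.53 (edgeR, adjusted p = 0.0297). In limma on unscaled RPKM, Cry2 was at -0.86 and -0.79 with pseudocounts of 0.1 and 1 (adjusted p = 0.000503 and 0.000224). Its exons share 295 bases with the opposite-strand gene D930015M05Rik in GENCODE vM1, and the library kit does not mark strand, so those reads cannot be told apart.

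Per1 and Per2, the light- and hormone-responsive period genes, were higher in iWAT than in BAT. Per1 (gene identifier 18626, mm9 chr11:68908719-68923462, plus strand) ranged from 5.04 to 13.7 RPKM in iWAT (median 8.56), from 5.56 to 16.0 in eWAT (median 8.19) and from 1.96 to 9.19 in BAT (median 3.04). On this unscaled RPKM, BAT library 11 alone reached into the iWAT range, and the other 5 BAT libraries held at most 4.05 RPKM. After TMM rescaling the lowest iWAT value was 5.41, and BAT library 8 also reached into the iWAT range. The log2 fold change for iWAT over BAT was 0.94 ± 0.34 (SE, edgeR, adjusted p = 0.0239). A merged row of Vamp2 spans part of the Per1 row on the same strand. Leaving out iWAT library 12 or BAT library 6, 12 or 13 moved the value to between 0.79 and 0.81 and the edgeR adjusted p to between 0.0550 and 0.0585. The value for eWAT over BAT was 0.51 ± 0.32 (SE, edgeR, adjusted p = 0.160) with the length offset, and 0.88 (edgeR, adjusted p = 0.00786) when BAT library 11 was left out. Without the offset it was 0.64 ± 0.33 (SE, edgeR, adjusted p = 0.0894). In limma on unscaled RPKM it was 1.35 and 1.13 with pseudocounts of 0.1 and 1 (adjusted p = 0.00108 and 0.0016).

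Per2 (gene identifier 18627, mm9 chr1:93312559-93355907, minus strand) ranged from 2.68 to 9.83 RPKM in iWAT (median 3.98), from 1.88 to 8.64 in eWAT (median 2.92) and from 0.439 to 4.19 in BAT (median 1.11). BAT libraries 8 and 11 overlapped with iWAT. The log2 fold change for iWAT over BAT was 1.34 ± 0.50 (SE), a 2.52-fold higher level (edgeR, adjusted p = 0.0299). This call was lost without iWAT library 11 or 12 or BAT library 6, 7, 12 or 13, with values from 1.08 to 1.20 and edgeR adjusted p-values from 0.0565 to 0.0725. In comparisons with eWAT, Per2 did not pass, at 0.32 ± 0.50 for eWAT over BAT (SE, edgeR, adjusted p = 0.571) and 0.99 ± 0.50 for iWAT over eWAT (SE, edgeR, adjusted p = 0.103). Without eWAT library 8 the latter was 1.39 (edgeR, adjusted p = 0.0280). Without the offset these values were 0.60 ± 0.51 (SE, edgeR, adjusted p = 0.302) and 0.69 ± 0.50 (SE, edgeR, adjusted p = 0.339).

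Per3 and Cry1 passed in none of the 3 comparisons in the edgeR fits with and without the offset. Per3, a period gene with less effect on rhythm in mice (gene identifier 18628, mm9 chr4:150377761-150418774, minus strand), ranged from 1.20 to 4.31 RPKM in iWAT (median 2.13), from 1.70 to 7.69 in eWAT (median 3.71) and from 0.776 to 3.19 in BAT (median 1.64). Its value for iWAT over eWAT was -0.28 ± 0.36 (SE) with the length offset and 0.76 ± 0.37 (SE) without it, in edgeR, neither of which passed. In limma on unscaled RPKM, Per3 was higher in eWAT than in BAT by 1.09 and 0.80 with pseudocounts of 0.1 and 1 (adjusted p = 0.00833 and 0.00987). Cry1, the second cryptochrome (gene identifier 12952, mm9 chr10:84594445-84647809, minus strand), ranged from 1.08 to 2.79 RPKM in iWAT, from 1.37 to 2.93 in eWAT and from 0.880 to 2.35 in BAT, and its log2 fold change for iWAT over BAT was -0.23 ± 0.26 (SE, edgeR, adjusted p = 0.438). With the eWAT transcript of highest RPKM, Cry1 was lower in eWAT than in BAT, at -0.66 (edgeR, adjusted p = 0.0201).

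Nr1d1, the REV-ERBα receptor gene, was higher in iWAT than in eWAT and higher in eWAT than in BAT. It lies at mm9 chr11:98629246-98636691 on the minus strand (gene identifier 217166). Its RPKM ranged from 79.7 to 137 in iWAT (median 122), from 51.6 to 103 in eWAT (median 88.4) and from 25.5 to 42.8 in BAT (median 33.4). White adipocyte libraries did not overlap with BAT on this scale. After TMM rescaling, iWAT overlapped with neither eWAT nor BAT, whereas eWAT and BAT overlapped. The log2 fold change was 1.55 ± 0.15 (SE) for iWAT over BAT, a 2.92-fold higher level (edgeR, adjusted p = 5.53e-07). For iWAT over eWAT it was 0.96 ± 0.17 (SE, edgeR, adjusted p = 0.000134) with the length offset and 0.76 ± 0.17 (SE, edgeR, adjusted p = 0.00252) without it. For eWAT over BAT it was 0.56 ± 0.17 (SE, edgeR, adjusted p = 0.00647) with the offset and 0.73 ± 0.17 (SE, edgeR, adjusted p = 0.000713) without it. A second row under the Nr1d1 symbol, a single exon at mm9 chr11:98630310-98634716 on the plus strand, was the same in all files and is free of the length problem. It held 19.1 ± 3.88 RPKM in BAT, 39.1 ± 9.59 in eWAT and 66.5 ± 12.2 in iWAT (SD, n = 6), and in a fit over the 5733 shared rows it was higher in iWAT than in eWAT by 0.82 ± 0.18 on the log2 scale (SE, edgeR, adjusted p = 0.00439). This row lies opposite to the Nr1d1 gene, and 263 exonic bases of Nr1d1 also overlap with the opposite-strand gene Thra, so reads of these genes cannot be told apart without strand.

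Dbp, the output regulator (gene identifier 13170, mm9 chr7:52960458-52965573, plus strand), ranged from 11.3 to 46.1 RPKM in iWAT (median 16.9), from 8.63 to 40.7 in eWAT (median 10.8) and from 3.05 to 20.3 in BAT (median 7.43). In each depot 1 library stood above the rest, namely iWAT 12, eWAT 8 and BAT 8, and the ranges overlapped between all depots. The log2 fold change for iWAT over BAT was 0.91 ± 0.45 (SE, edgeR, adjusted p = 0.0858), and 1.36 (edgeR, adjusted p = 0.00768) without BAT library 8. Dbp passed in no comparison with eWAT, at 0.06 ± 0.46 for eWAT over BAT (SE, edgeR, adjusted p = 0.914) and 0.82 ± 0.47 for iWAT over eWAT (SE, edgeR, adjusted p = 0.149). Without eWAT library 8, the value for iWAT over eWAT was 1.30 (edgeR, adjusted p = 0.0201). Without the offset, the values with all libraries were -0.27 ± 0.47 (SE, edgeR, adjusted p = 0.625) and 1.12 ± 0.47 (SE, edgeR, adjusted p = 0.0906). A stretch of 491 exonic bases, 16.7% of the gene's exonic bases in GENCODE vM1, is shared with the opposite-strand gene Sphk2, and these reads cannot be told apart.

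**Figure D2:**
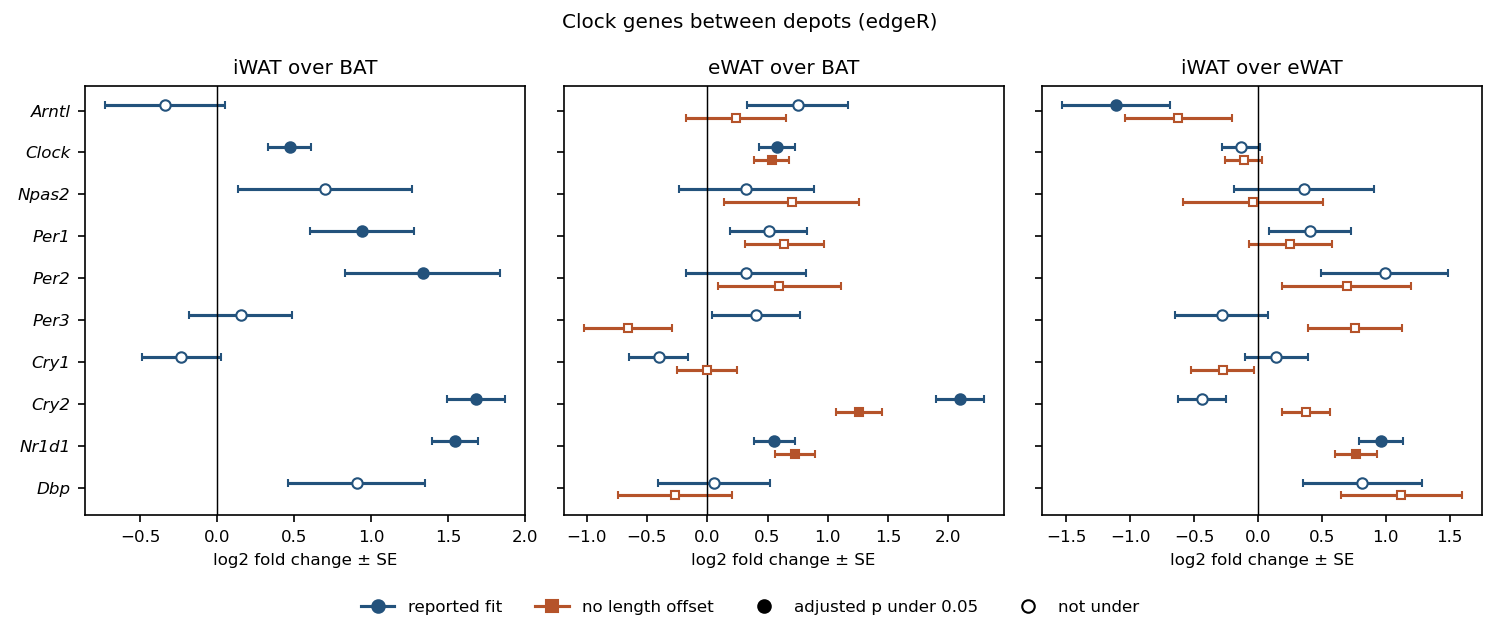
Log2 fold changes of the 10 clock genes between depots, with SE bars (edgeR), where circles are the values with the length offset for eWAT (none is needed for iWAT over BAT), squares are the values without it, and filled symbols have an adjusted p under 0.05. Cry2, Nr1d1 and Clock are filled in both comparisons with BAT, and Npas2, Per3, Cry1 and Cry2 change sign with the offset for iWAT over eWAT.

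Counted together, 5 of the 10 members (Clock, Per1, Per2, Cry2 and Nr1d1) were higher and 0 were lower in iWAT than in BAT, with a median log2 fold change of 0.80 against 0.01 over all genes tested. In this comparison 67.6% of all genes tested were called by edgeR, 34.0% as higher in iWAT and 33.6% as lower, so a count of 5 is not far from that background. For eWAT over BAT, 3 members (Clock, Cry2 and Nr1d1) were higher and 0 were lower, where 73.9% of all genes were called, 39.9% as higher in eWAT and 34.0% as lower. For iWAT over eWAT, Nr1d1 was higher and Arntl lower, where 52.5% of all genes were called, 24.2% as higher in iWAT and 28.3% as lower. Without the length offset, these figures were 3 members against 70.3% of all genes for eWAT over BAT, and 1 member (Nr1d1) against 25.6% for iWAT over eWAT. The 3 comparisons share libraries and are not independent of each other.

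Within depots, several clock genes varied more between libraries than most genes did. The SD of log2(RPKM + 0.1) of Dbp was 0.77 (iWAT), 0.83 (eWAT) and 0.92 (BAT), at percentile 96.2, 94.4 and 98.7 of all genes averaging 1 RPKM or more, whose median SD was 0.20, 0.26 and 0.18. Per2 varied most of the members in BAT, with an SD of 1.13 at percentile 99.0, but with a pseudocount of 1 its SD there was 0.72 against 0.82 for Dbp. Arntl had SDs of 0.59, 0.88 and 0.80 in iWAT, eWAT and BAT. Clock and Nr1d1 lay closer to the typical gene, at percentiles between 54.8 and 74.3 in the 3 depots. Cry2 and Nr1d1, which differed most between iWAT and BAT, had SDs of 0.26 to 0.37 and varied less than Dbp in each depot.

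In each depot the library with the highest Dbp had the lowest Arntl, as the plot of Dbp against Arntl shows. iWAT library 12 had the highest Dbp (46.1 RPKM) and the lowest Arntl (0.278 RPKM) of its depot, as did eWAT library 8 (40.7 and 0.472 RPKM) and BAT library 8 (20.3 and 0.216 RPKM). BAT library 11 was at the other end, with the lowest Dbp (3.05 RPKM) and the highest Arntl (1.45 RPKM) of BAT. The log2 ratio of Dbp to Arntl RPKM spanned 3.60 to 7.37 in iWAT, 1.78 to 6.43 in eWAT and 1.07 to 6.55 in BAT. A shared title number did not mean a shared ratio in all cases. The ratio of number 8 was the highest in both eWAT and BAT, but that of number 12 was the highest in iWAT (7.37) and the second lowest in BAT (2.41).

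**Figure D3:**
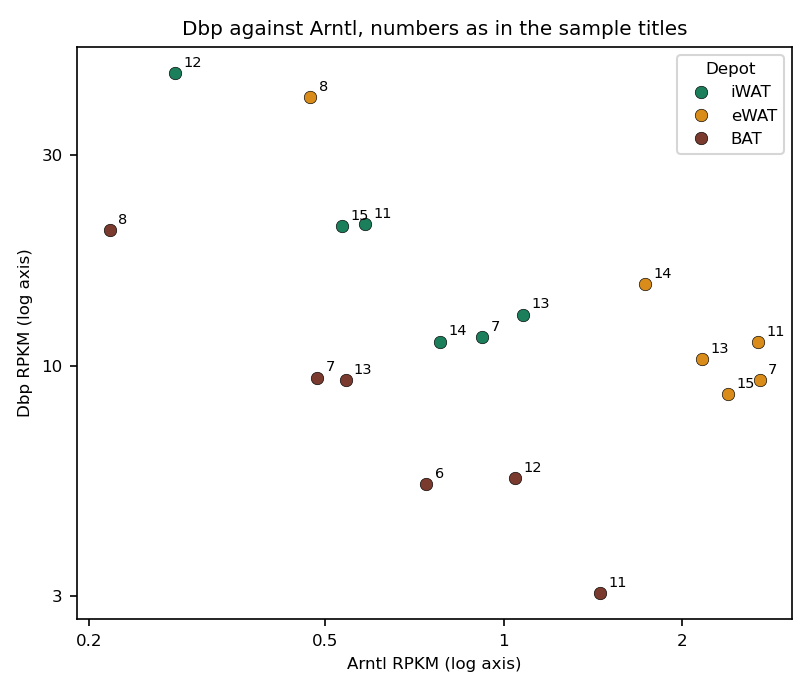
Dbp RPKM against Arntl RPKM in the 18 libraries (log axes), coloured by depot and marked with the number in the sample title. In each depot the library with the lowest Arntl has the highest Dbp, and 5 of the 6 eWAT libraries lie close together.

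Correlations between members over the 6 libraries of a depot were tested for all 45 pairs in each of 3 depots, 135 relations in all. With exact permutation tests (two-sided) and Benjamini-Hochberg adjustment, 0 of the 135 passed, and the lowest adjusted p of Pearson's r was 0.0750. The smallest p that 6 libraries allow is 0.00139 for r and 0.00278 for rho (exact permutation). No pair could therefore pass this adjustment alone, and the count of 0 does not show that the members vary independently. At an unadjusted p under 0.05, 9 pairs in iWAT, 9 in eWAT and 11 in BAT were counted for r, and 9, 1 and 8 for Spearman's rho. All relations below are therefore given as values that fail the correction. In BAT, Arntl and Dbp had r = -0.98 (exact permutation p = 0.00417, adjusted 0.0938) and rho = -0.94 (exact permutation p = 0.0167, adjusted 0.250), with r = -0.88 without the libraries farthest from the median Arntl (8 and 11). In iWAT they had r = -0.95 (exact permutation p = 0.0167, adjusted 0.163) and rho = -0.71 (exact permutation p = 0.136, adjusted 0.375), with r = -0.94 without libraries 12 and 13. In eWAT they had r = -0.97 (exact permutation p = 0.0181, adjusted 0.163) and rho = -0.71 (exact permutation p = 0.136, adjusted 0.375), but r = 0.11 without libraries 8 and 14, so the eWAT relation rests on those libraries. For comparison, an r with Arntl at or below -0.8 was found for 3.23% of genes in iWAT, 4.09% in eWAT and 1.58% in BAT. In eWAT the mean log2 level of 5 endothelial markers, all detected and with a summed RPKM of 77.7 to 204, also moved with Arntl (r = -0.88) and Dbp (r = 0.86), its highest value being in library 8. Its part in the result was not tested. In iWAT and BAT the same sums were 23.2 to 135 and 43.1 to 80.6 RPKM, with r between -0.51 and 0.52 with either gene.

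The r of Npas2 with Arntl and of Per3 with Dbp was above 0 in each depot, with no pair past the adjusted threshold. Arntl and Npas2 had r = 0.95 in iWAT (exact permutation p = 0.00278), 0.99 in eWAT (exact permutation p = 0.00278) and 0.81 in BAT (exact permutation p = 0.0556). Their rho was 0.94, 0.94 and 0.77 (exact permutation p = 0.0167, 0.0167 and 0.103), and without the libraries farthest from the median Arntl r was 0.99, 0.94 and 0.38. Adjusted p-values of r were 0.0750, 0.0750 and 0.201, and an r with Arntl of 0.8 or more was found for 0.874% of genes in iWAT, 0.679% in eWAT and 5.08% in BAT. Per3 and Dbp, the gene with D-box letters in its promoter and the gene of a D-box factor, had r = 0.92 in iWAT (exact permutation p = 0.00139), 0.79 in eWAT (exact permutation p = 0.0556) and 0.99 in BAT (exact permutation p = 0.0111). Their rho was 1, 0.60 and 0.89 (exact permutation p = 0.00278, 0.242 and 0.0333), and without the libraries farthest from the median Per3 r was 0.79, 0.00 and 0.97, so the eWAT value rests on libraries 8 and 15. Adjusted p-values of r were 0.0750, 0.201 and 0.163, and 4.21%, 5.00% and 1.42% of genes had an r with Dbp of 0.8 or more. Of the 45 pairs, 25 had the same sign in the 3 depots, and 4 of these (Arntl with Dbp, Npas2 with Dbp, Per3 with Cry2 and Arntl with Npas2) had an r of at least 0.8 in size in each. The share over pairs of other genes was not computed, so these counts have no background and are a description only. The values of Npas2 rested on 2 to 56 reads per library.

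The r of Per1, Per2 and Cry1 with Dbp over all libraries of a depot was lower in BAT than in the white adipocytes. With Dbp, Per1 had an r of -0.24 in BAT but of 0.87 in iWAT and 0.82 in eWAT, Per2 one of 0.08, 0.83 and 0.88, and Cry1 one of -0.80, 0.62 and 0.84, none past the adjusted threshold. BAT library 11 had the highest Per1, Per2 and Cry1 of BAT (9.19, 4.19 and 2.35 RPKM) with the lowest Dbp, Per3 and Cry2 (3.05, 0.776 and 1.25 RPKM). Without that library and BAT library 6, the r of Per1 with Dbp in BAT was 0.73. That of Per2 was 0.85 without BAT libraries 8 and 11, and that of Cry1 was -0.89 without BAT libraries 11 and 13. In eWAT the r with Dbp was -0.54 for Per1 and -0.09 for Cry1 without libraries 7 and 8. It was 0.28 for Per2 without eWAT libraries 8 and 15, so the eWAT values rest on those libraries. In iWAT it was 0.75 for Per1 (without 7 and 12), 0.89 for Per2 (without 11 and 12) and 0.38 for Cry1 (without 12 and 14). The difference between depots was not tested. Per1 and Per2 had r = 0.88 in BAT (exact permutation p = 0.00139, adjusted 0.0750) and rho = 1 (exact permutation p = 0.00278, adjusted 0.188), with r = 0.71 without libraries 6 and 11. In iWAT, library 14 held the lowest value of 5 members, and its endothelial marker sum of 135 RPKM was the highest there. In eWAT, library 15, with the high macrophage marker sum, held the lowest value of 6 members. The part of these markers in the levels was not tested.

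**Figure D4:**
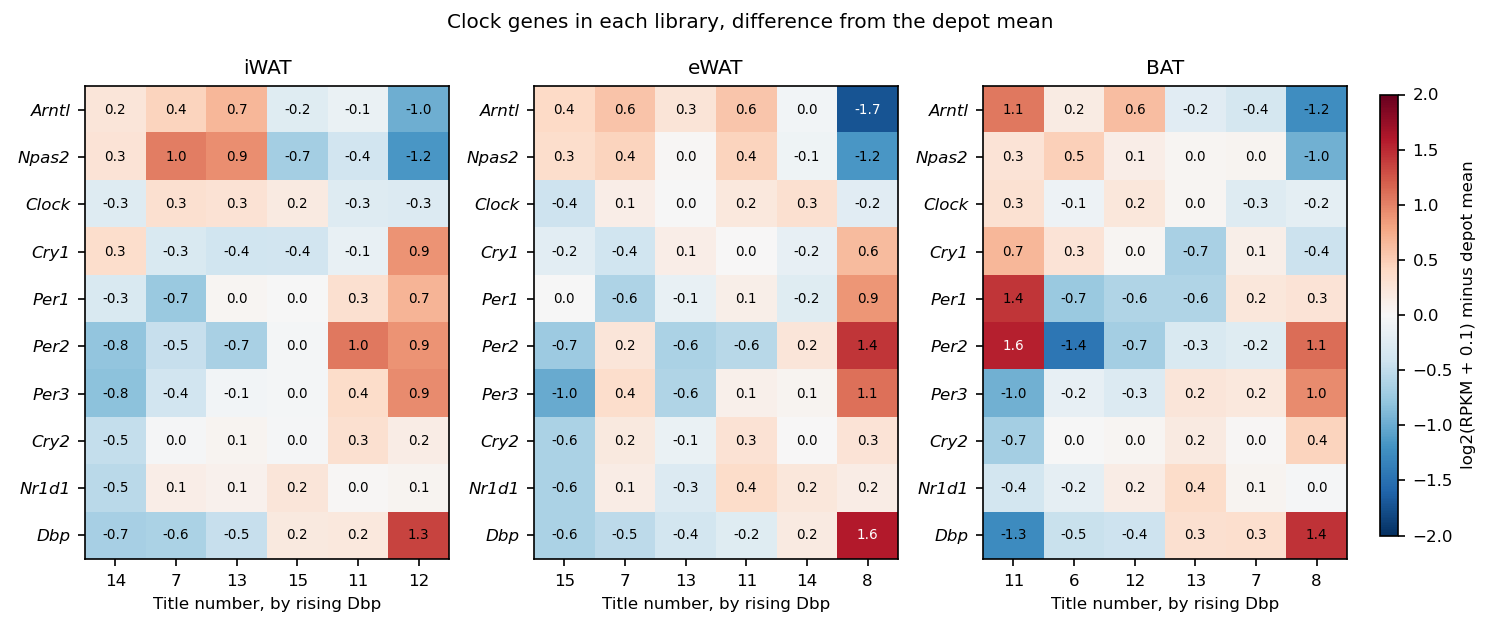
Difference of log2(RPKM + 0.1) from the mean of the depot for each clock gene (rows) in each library (columns, by rising Dbp, title numbers on the axis), red for above and blue for below the mean. Arntl and Npas2 turn from red to blue as Dbp rises, and BAT library 11 is red for Per1, Per2 and Cry1 but blue for Per3, Cry2 and Dbp.

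**Figure D5:**
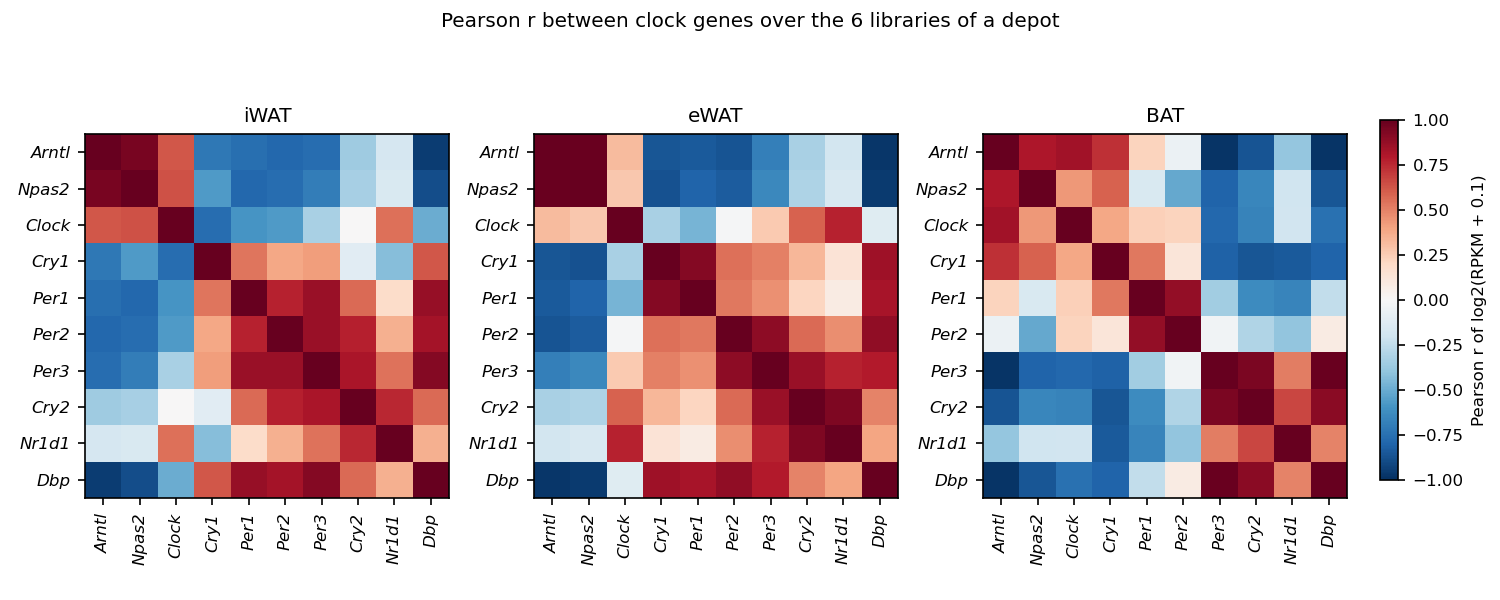
Pearson r of log2(RPKM + 0.1) between the 10 clock genes over the 6 libraries of each depot, from -1 (blue) to 1 (red). The blue field of Arntl against Dbp is present in the 3 panels, whereas the fields of Cry1, Per1 and Per2 against Dbp are red in iWAT and eWAT and blue or near white in BAT.

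Other genes were ranked by their likeness to Arntl and Dbp over the 18 deviations from depot means, as a description, among 10338 symbols that averaged 1 RPKM or more in each depot. The gene with the most negative r to Arntl was Dbp itself (r = -0.96), followed by Stk38l (-0.88), 6430520M22Rik (-0.87), Tef (-0.86), Bhlhe41 (-0.85) and Hlf (-0.81). Tef and Hlf encode the other PAR bZIP factors, relatives of Dbp, and Bhlhe41 encodes DEC2, a repressor at E-box sites. The most positive were Dtx4 (0.88), Dapk1 (0.81), Xrcc3 (0.81), Zfp740 (0.77), Mcm7 (0.77) and Terf2 (0.74). Most like Dbp were Tef (0.93), 6430520M22Rik (0.93), Bhlhe41 (0.92), Stk38l (0.91), Per3 (0.89) and Hlf (0.87), and most unlike it were Dtx4 (-0.90), Xrcc3 (-0.80), Dapk1 (-0.75), Pigx (-0.74), Cdkn1a (-0.73) and LOC100503790 (-0.73). Arntl and Npas2 did not average 1 RPKM in each depot and so were not among the ranked symbols. Their r to Dbp was -0.96 and -0.86, and that of Npas2 to Arntl was 0.86. Single libraries weigh heavily in these values. In iWAT library 12, eWAT library 8 and BAT library 8, the log2 deviations were 1.35, 1.59 and 1.45 for Dbp. For Arntl they were -0.98, -1.73 and -1.24. A ranking without these libraries was not computed. Each of the 18 points is 1 library, and some libraries share a title number. All genes were read in these same libraries, so the r values are not independent of each other.

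The wider clock pathway was followed with 22 further genes, all of which passed the count filter, Rorb only through its BAT libraries. Between iWAT and BAT, 8 were higher and 5 lower (edgeR), with a median log2 fold change of 0.19, where 67.6% of all genes tested were called, 34.0% as higher and 33.6% as lower. The 5 include Rorb, whose call as lower is not independent of that filter. Nfil3, a repressor at D-box sites, was higher in iWAT by 2.40 ± 0.39 on the log2 scale (SE, edgeR, adjusted p = 8.87e-05). Rora, an activator at the receptor sites on which REV-ERBα acts, was higher by 1.93 ± 0.18 (SE, edgeR, adjusted p = 3.07e-07). Nampt, the clock-driven enzyme of NAD salvage, was lower in iWAT, at -0.996 ± 0.132 (SE, edgeR, adjusted p = 1.28e-05). Tef, Hlf and Bhlhe41, which varied with Dbp between libraries, did not pass in this comparison.

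For eWAT over BAT, 9 of the 22 genes were higher and 8 lower with the length offset, and 5 and 8 without it, where 73.9% and 70.3% of all genes were called. Rorb, which passed the filter only through BAT, is among the 8 lower in both. Hlf was lower in eWAT, by a log2 fold change of -2.45 ± 0.30 (SE, edgeR, adjusted p = 7.11e-07), and also passed without the offset. For iWAT over eWAT, 7 were higher and 5 lower with the offset, and 7 and 0 without it, where 52.5% and 25.6% of all genes were called. Hlf was higher in iWAT by 2.11 ± 0.30 on the log2 scale (SE, edgeR, adjusted p = 1.23e-05), and also passed without the offset. Btrc, part of the ubiquitin ligase that marks PER proteins, turned from higher to lower in eWAT than in BAT, at 0.60 with the offset and -0.45 without it (edgeR, adjusted p = 4.38e-07 and 1.20e-05).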

How the data were processed

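RNA was measured in 18 libraries (iWAT, eWAT and BAT, n = 6 each), made with the NEBNext Ultra kit and grouped by the depot in the labels. The submitters' processing notes name cutadapt (version 1.16) and HISAT2 (version 2.1.0). The authors mapped the reads to mm9 and used the Genomatix Genome Analyzer. The annotation and counting rule are not given in the sources used here. The authors deposited unnormalized read counts per row and RPKM values, which equal the count divided by row length and by 1 read total per library. Depth was 22929576 to 34512470 reads, so counting error is small beside the spread for all members except Npas2. In iWAT and BAT the 53445 rows are merged genes, and in eWAT the 189660 rows are transcripts.

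Counts were compared with edgeR (version 4.0.16, R version 4.3.3) with glmQLFit, glmQLFTest and TMM, over all symbols with at least 10 reads in at least 6 libraries (19733 for iWAT against BAT, fitted on those 12 libraries, and 18383 in the fit of all 18 libraries used for eWAT). Row length entered the latter as an offset. The threshold was a Benjamini-Hochberg adjusted p under 0.05 over all genes tested, and the SE was derived from the F statistic. The code was tested on simulated counts. Correlations used log2(RPKM + 0.1), all 720 permutations, scipy (version 1.17.1) and numpy (version 2.4.6). All 10 members are named, and of the 22 pathway genes those past the threshold with the largest changes, of which 1 is counted but not reported here, and Rorb, which passed the count filter only through its BAT libraries, is counted without its value. Also named are the 6 genes most and least like Arntl and Dbp, Adipoq and Ucp1, genes that overlap a member, and Tef, Hlf, Bhlhe41 and Btrc where a sentence needed them. The members and lists were chosen with earlier results of these data known.

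Libraries with the same title number were checked for shared deviations. Over all genes, these correlated on average at -0.09 for iWAT with eWAT, -0.09 for eWAT with BAT and 0.03 for iWAT with BAT. Single values ran from -0.23 to 0.21. Over the clock genes alone, single values ran from -0.78 to 0.92 for the same number and from -0.91 to 0.97 for different numbers. The numbers were not used as pairs, but this check cannot settle whether a number marks a mouse. Alternatives were limma (version 3.58.1) on log2 RPKM, DESeq2 (version 1.42.0), other filters, rows and scalings, the title number as a block and fits without single libraries. Fits without the length offset were added after the data were seen.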

Additional observations from a re-analysis of the deposited data

Results flagged for a closer look

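For each member and depot, the highest and lowest library were compared with the other 5 by the gap to the nearest value as a share of the depot's range (Dixon's 95% limit for 6 libraries). A total of 7 of the 30 sets had a library past the limit, where chance gives about 1.5 if values are normally distributed. RPKM values need not be so, and the share over all genes was not computed. The count is therefore not shown to be particular to clock genes. Dbp passed it in the 3 depots, with 46.1 RPKM in iWAT library 12 against 11.3 to 21.0 in the others, 40.7 RPKM in eWAT library 8 against 8.63 to 15.3, and 20.3 RPKM in BAT library 8 against 3.05 to 9.40. In the same eWAT library 8, Per1 was at 16.0 RPKM against 5.56 to 9.38 in the others and Per2 at 8.64 RPKM against 1.88 to 3.76. Per1 in BAT library 11 was at 9.19 RPKM against at most 4.05 in the others. Nr1d1 in iWAT library 14 was the only low value, at 79.7 RPKM against 119 to 137 in the other iWAT libraries. The sets are not independent, since 10 genes were read in the same libraries.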

How the results depend on the processing

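Cry2 and Nr1d1 (both comparisons with BAT) and Nr1d1 (iWAT over eWAT) stayed past the threshold in every alternative in which they were tested. Clock did so for eWAT over BAT. In the alternatives for pairs 0 of 135 passed, but with 6 libraries no pair could pass this adjustment alone. With the title number as a replicate block, edgeR called 11711, 12436 and 8386 genes for iWAT over BAT, eWAT over BAT and iWAT over eWAT against 13337, 13581 and 9652 without it, and 3, 3 and 4 clock genes against 5, 3 and 2. Under the block, Clock (0.44, adjusted p = 0.123) and Per1 (1.07, adjusted p = 0.0521) no longer passed for iWAT over BAT, and Per2 and Dbp (adjusted p = 0.0310 and 0.0323) passed for iWAT over eWAT (edgeR). Hlf for iWAT over BAT became 0.15. Of 26 checks, 1 library correlated best with its own number in another depot, and the labels do not say whether a number marks a mouse. On unscaled RPKM (limma, pseudocounts 0.1 and 1), 7 and 6 clock genes and 14777 and 14646 of all genes passed for eWAT over BAT, and 4 and 4 clock genes and 9661 and 9507 of all genes for iWAT over eWAT. Log2 values that changed sign there were Cry1 for iWAT over BAT (0.00715 and 0.00671) and for eWAT over BAT (0.34 and 0.21), and, for iWAT over eWAT, Npas2 (-0.18 and -0.0253), Per1 (-0.0232 and -0.0208) and Cry1 (-0.33 and -0.21). Without the length offset, 4714 genes, 1 clock gene and 7 pathway genes passed for iWAT over eWAT, and signs changed for Npas2 (-0.0396), Per3 (0.76), Cry1 (-0.28), Cry2 (0.38), Csnk1e (0.29) and Btrc (0.88) there and for Per3 (-0.66), Dbp (-0.27) and Btrc (-0.45) in eWAT over BAT. Dbp for eWAT over BAT was -0.0132 with DESeq2 and -0.0048 with the eWAT transcript of highest RPKM, which gave 5 clock genes for iWAT over eWAT. Rows identical in all files, of which 5733 were tested, gave 3888 and 737 calls for eWAT over BAT and iWAT over eWAT, and hold no count for the clock genes beyond the second Nr1d1 row. Without single libraries, the clock genes called ranged from 3 to 6 for iWAT over BAT and from 1 to 4 for iWAT over eWAT, and signs changed within the ranges of Per3 for iWAT over BAT (-0.0618 to 0.422), Per2 (-0.0783 to 0.684) and Dbp (-0.43 to 0.52) for eWAT over BAT, and Cry1 for iWAT over eWAT (-0.0428 to 0.276). The causes were not tested. The design cannot separate depot from preparation in BAT or from row type in eWAT, and 6 libraries leave correlations wide.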
